A study of Mus musculus with 12 samples.

Results

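The genes described here are 9 Krüppel-like factors (KLFs), namely Klf2, Klf3, Klf4, Klf5, Klf6, Klf9, Klf10, Klf13 and Klf15. They were taken by gene symbol, and each was measured by a single probe set that names no other gene, so all 9 members were found among 19938 measured genes. They were followed across renal cortex arrays of 4 groups with 3 arrays each, measured as deposited log2 expression values. GR-deficient mice carried Pax8-Cre together with floxed alleles of nr3c1 (Pax8-Cre;nr3c1 flox/flox), the gene of the glucocorticoid receptor (GR), and control mice carried the floxed alleles alone (nr3c1 flox/flox). The groups were GR-deficient mice with acute kidney injury (AKI), control mice with AKI, healthy GR-deficient mice and healthy control mice. AKI was induced by an intramuscular injection of glycerol, which releases myoglobin from muscle, and the cortex was taken 24 hours later. Healthy mice were not injected and formed a cohort of their own, so injury and cohort cannot be told apart. Pax8-Cre acts in the tubular epithelium, the other cells of the cortex keep the receptor, and any effect of the Cre itself cannot be told apart from that of the deletion. The sources used here do not give strain, age or time of day, and the labels number the replicates without saying that each is a separate animal. P-values therefore reflect the spread among the samples as labelled, part of which may be technical.

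KLFs are transcription factors that bind GC-rich boxes and CACCC boxes in promoters through zinc fingers near their C-terminus. Some, such as KLF9 and KLF15, are known targets of the glucocorticoid receptor and of the circadian clock, and KLF15 drives amino acid breakdown and gluconeogenesis. Others, such as KLF2, KLF4, KLF6 and KLF10, behave as early response genes in many cell types exposed to stress, growth factors or changed blood flow.

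Nr3c1 was lower on all GR-deficient arrays than on any control array, with log2 values of 7.87 to 8.10 in GR-deficient mice and 8.82 to 8.89 in control mice with AKI, and of 8.13 to 8.21 in GR-deficient and 9.48 to 9.65 in control mice when healthy. Proximal tubule markers stood at a mean log2 level of 10.6 to 12.7 on the 12 arrays over 10 measured markers, so the defining cells of the labelled cortex were represented on every array. A pair of arrays stood apart, control AKI replicate 1 on the second principal component (33.8, the others -21.6 to 11.6) and healthy GR-deficient replicate 1 on the third (34.8, the others -14.5 to 5.83), and calls that change when both are left out are named beside their values.

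Klf6 had the largest difference of the members after AKI in control mice. KLF6 is a widely expressed activator that is induced early after tissue injury. Its log2 values were 9.36, 9.22 and 8.56 in GR-deficient mice with AKI and 10.71, 10.87 and 10.54 in control mice with AKI, and they were 8.54, 8.40 and 8.90 in GR-deficient and 8.27, 8.23 and 8.33 in control mice when healthy. The 3 control arrays with AKI lay above all others by more than 1 log2 unit, whereas the GR-deficient arrays with AKI overlapped the healthy GR-deficient ones. In GR-deficient mice the difference of AKI minus healthy was 0.43 ± 0.18 on the log2 scale (standard error, here and below; 95% confidence interval 0.04 to 0.82, adjusted p = 0.223, limma). It was 0.68 and passed (adjusted p = 0.0261) without GR-deficient AKI replicate 3, the array with the lowest Klf6 of its group. In control mice AKI raised Klf6 by 2.43 ± 0.18, a 5.38-fold increase (adjusted p = 2.26e-07) and the 112th largest of 19938 absolute differences. The response was smaller in GR-deficient mice by 2.00 ± 0.26 (interaction, adjusted p = 0.000273), and with AKI the level was 1.66 ± 0.18 lower in GR-deficient than in control mice (adjusted p = 2.64e-05).

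Klf4 and Klf5 were likewise highest in control mice with AKI, with smaller differences. KLF4 restrains proliferation and supports differentiation in epithelia and endothelium. Klf4 stood at 7.65, 7.35 and 7.71 in GR-deficient mice with AKI and at 8.34, 8.23 and 8.27 in control mice with AKI, against 7.79, 7.45 and 7.52 in GR-deficient and 7.24, 7.46 and 7.30 in control mice when healthy. Here again the control AKI arrays lay apart from all others, and the other 3 groups overlapped each other in order of their means. The difference of AKI minus healthy was -0.01 for Klf4 in GR-deficient mice (95% confidence interval -0.28 to 0.25, adjusted p = 0.974; 0.088, also not called, without both arrays that stand apart), while it rose by 0.95 ± 0.12 in control mice (adjusted p = 3.34e-05). The 2 responses differed by -0.96 ± 0.17 (interaction, adjusted p = 0.00255), and with AKI GR-deficient mice had 0.71 ± 0.12 less than control mice (adjusted p = 0.000987). KLF5 promotes proliferation of epithelial cells and is known in the kidney from the collecting duct. Klf5 stood at 7.38, 6.998 and 7.02 in GR-deficient and at 7.81, 7.86 and 7.66 in control mice with AKI, and at 7.10, 6.80 and 6.86 in GR-deficient and 6.98, 7.12 and 6.95 in control mice when healthy. No array outside the control AKI group reached its lowest value. With AKI the Klf5 difference was 0.21 ± 0.13 in GR-deficient mice (adjusted p = 0.398), and in control mice Klf5 rose by 0.76 ± 0.13 (adjusted p = 0.000267). With AKI it was 0.64 ± 0.13 lower in GR-deficient than in control mice (adjusted p = 0.00222), while the interaction of -0.55 ± 0.18 did not pass (adjusted p = 0.0627). It passed in 3 of 18 alternatives, without dim genes (adjusted p = 0.0279), without control AKI replicate 3 (adjusted p = 0.0468) and without GR-deficient AKI replicate 1 (adjusted p = 0.0225).

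**Figure D1:**
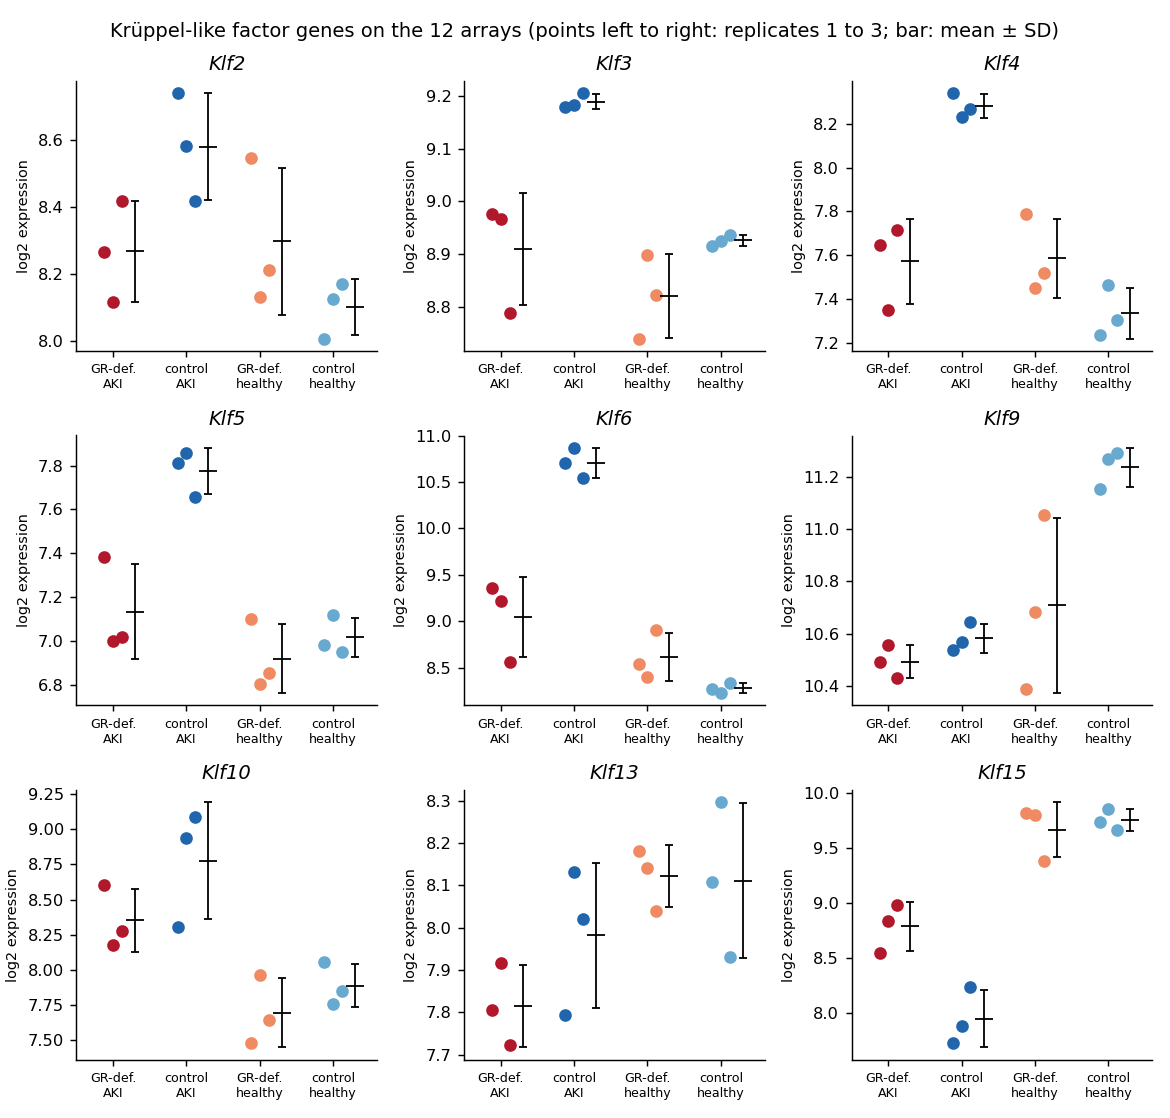
Log2 expression (vertical axis, a scale of its own per panel) of the 9 genes on each array, by group (horizontal axis), with the mean and SD of 3 arrays. For Klf6, with values of 10.54 to 10.87, and for Klf4 and Klf5, the control AKI arrays lie above all others, and for Klf15, with values of 7.73 to 8.24, they lie below.

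Klf2, Klf10 and Klf3 completed the members that rose with AKI in control mice. KLF2 is the flow-induced factor of the endothelium. Klf2 had 8.27, 8.12 and 8.42 in GR-deficient and 8.74, 8.58 and 8.42 in control mice with AKI, against 8.55, 8.13 and 8.21 in healthy GR-deficient and 8.01, 8.12 and 8.17 in healthy control mice. The difference after AKI was -0.03 in GR-deficient mice (95% confidence interval -0.31 to 0.25, adjusted p = 0.941; 0.095, also not called, without both arrays that stand apart), and Klf2 rose by 0.48 ± 0.13 in control mice (adjusted p = 0.0111; 0.0527 without healthy control replicate 1). Neighbouring groups overlapped at each step in the order of the Klf2 means, and the interaction of -0.51 ± 0.18 did not pass (adjusted p = 0.094; 0.045 without dim genes). KLF10, also called TGF-beta inducible early gene, is a repressor that the clock drives as well. Klf10 was at 8.61, 8.18 and 8.28 in GR-deficient and at 8.30, 8.94 and 9.09 in control mice with AKI, against 7.48, 7.97 and 7.64 in healthy GR-deficient and 8.06, 7.76 and 7.85 in healthy control mice. All 6 arrays with AKI lay above all 6 healthy ones. The Klf10 difference in GR-deficient mice, 0.66 ± 0.19, did not pass the threshold (adjusted p = 0.0656; 0.0425 without both arrays that stand apart) and was the 440th largest of 19938 there. In control mice Klf10 rose by 0.89 ± 0.19 (adjusted p = 0.00216). The Klf10 responses of the genotypes did not differ detectably (interaction -0.23, 95% confidence interval -0.80 to 0.34, adjusted p = 0.671). KLF3 is a repressor that recruits the corepressor CtBP. Klf3 spanned 8.79 to 8.98 in GR-deficient and 9.18 to 9.20 in control mice with AKI, and 8.74 to 8.90 in GR-deficient and 8.91 to 8.94 in control mice when healthy. In GR-deficient mice the difference after AKI was 0.09 ± 0.09 (adjusted p = 0.67). The increase of 0.26 ± 0.09 in control mice was just past the threshold (adjusted p = 0.0493) and was lost when any of the 6 arrays was left out (adjusted p from 0.0558 to 0.13).

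Klf15 moved the other way. KLF15 is an activator of genes of amino acid breakdown and glucose production, and is also known from the podocyte. Its log2 values were 8.55, 8.83 and 8.98 in GR-deficient mice with AKI and 7.73, 7.88 and 8.24 in control mice with AKI, and 9.82, 9.80 and 9.38 in GR-deficient and 9.73, 9.86 and 9.66 in control mice when healthy. The healthy groups overlapped, the GR-deficient AKI arrays lay below them, and the control AKI arrays lay lower still. AKI lowered Klf15 by 0.88 ± 0.16 in GR-deficient mice (adjusted p = 0.00603), and in control mice it fell by 1.80 ± 0.16, or 3.48-fold (adjusted p = 8.07e-07). The fall was smaller in GR-deficient mice by 0.92 ± 0.22 (interaction, adjusted p = 0.0144), and with AKI GR-deficient mice had 0.84 ± 0.16 more Klf15 than control mice (adjusted p = 0.00174). In the healthy cortex the genotype difference was -0.09 ± 0.16 (95% confidence interval -0.42 to 0.25).

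Klf9 was the member with the largest genotype difference in healthy mice. KLF9 is a repressor and an established glucocorticoid and thyroid hormone target. It stood at 10.49, 10.56 and 10.43 in GR-deficient and at 10.54, 10.57 and 10.64 in control mice with AKI, against 10.39, 10.68 and 11.06 in GR-deficient and 11.15, 11.27 and 11.29 in control mice when healthy. The healthy control arrays lay above all 9 others, and the 3 healthy GR-deficient arrays were the most widely spread of the 4 groups. AKI was followed by a difference of -0.21 ± 0.14 in GR-deficient mice (adjusted p = 0.448), while in control mice Klf9 fell by 0.65 ± 0.14 (adjusted p = 0.0019). Healthy GR-deficient mice had 0.53 ± 0.14 less Klf9 than healthy control mice, which did not pass over all genes (unadjusted p = 0.0017, adjusted p = 0.179). Without healthy GR-deficient replicate 3 the difference was -0.70 and passed (adjusted p = 0.0293), as did the interaction of 0.61 (adjusted p = 0.0227), which with all arrays was 0.44 ± 0.19 (adjusted p = 0.181). With AKI the genotypes differed by -0.09 ± 0.14 (95% confidence interval -0.38 to 0.21). KLF13, known as a factor of the chemokine gene Ccl5 in T cells, was the member with no called difference. Klf13 spanned 7.72 to 7.92 in GR-deficient and 7.79 to 8.13 in control mice with AKI, and 8.04 to 8.18 in GR-deficient and 7.93 to 8.30 in control mice when healthy. Its GR-deficient AKI arrays lay below the healthy ones (-0.31 ± 0.12, adjusted p = 0.183), and in control mice the difference was -0.13 ± 0.12 (adjusted p = 0.53). Between healthy genotypes it was 0.01 (95% confidence interval -0.25 to 0.27), and -0.020 without both arrays that stand apart, neither called.

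The promoters of Klf15, Klf6 and Klf4, the members whose response differed between genotypes in the test of the difference itself, are shown with the clock-type E-box CACGTG in capitals. They are RefSeq windows of 250 bases before to 50 after a start in build GRCm38.p6, read 5′ to 3′ on the gene's strand, at chr6:90462326-90462625, plus strand (Klf15), chr13:5861239-5861538, plus strand (Klf6) and chr4:55532426-55532725, minus strand (Klf4).
Klf15: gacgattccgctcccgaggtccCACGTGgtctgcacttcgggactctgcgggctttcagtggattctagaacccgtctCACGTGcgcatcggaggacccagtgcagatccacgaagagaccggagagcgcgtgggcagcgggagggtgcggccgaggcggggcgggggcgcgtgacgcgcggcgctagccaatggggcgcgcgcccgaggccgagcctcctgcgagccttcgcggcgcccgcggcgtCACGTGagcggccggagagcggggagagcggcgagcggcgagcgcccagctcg
Klf6: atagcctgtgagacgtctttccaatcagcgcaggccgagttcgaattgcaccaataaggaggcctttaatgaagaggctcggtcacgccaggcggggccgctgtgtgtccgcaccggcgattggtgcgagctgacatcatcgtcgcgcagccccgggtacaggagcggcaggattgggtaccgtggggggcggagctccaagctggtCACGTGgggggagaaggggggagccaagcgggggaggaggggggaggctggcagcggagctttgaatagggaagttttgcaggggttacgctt
Klf4: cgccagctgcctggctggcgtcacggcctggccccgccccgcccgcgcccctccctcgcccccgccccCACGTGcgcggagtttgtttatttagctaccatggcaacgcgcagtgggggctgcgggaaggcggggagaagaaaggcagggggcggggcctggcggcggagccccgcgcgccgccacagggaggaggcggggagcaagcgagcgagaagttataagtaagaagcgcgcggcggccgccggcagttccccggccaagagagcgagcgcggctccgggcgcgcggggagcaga

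Windows were found for 7 of the 9 members (Klf5 and Klf10 were not among them), and the E-box was in 3 of the 7, these 3 genes, against 7.15% of 32851 windows of the same length. The Klf15 window held 3 copies, beginning 228, 172 and 3 bases before the start, a number reached by 0.0883% of all windows. Klf6 had its copy 43 and Klf4 182 bases before the start. The core hexamer of the glucocorticoid response element, TGTTCT on either strand, was in 0 of the 7 windows and in 19% of all windows, and the cyclic AMP element TGACGTCA in 0 and in 1.79%. The GC box GGGCGG was in 6 of 7 (35.7% of all) and the box CACCC in 5 of 7 (57.5% of all). In Klf15 each of these 2 boxes occurred once. The windows of the 7 members had 63% to 76.7% G and C. This share was not computed for all windows, so the motif shares are not matched for it. A match of letters is a description of the window only.

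Counted over the family, AKI in GR-deficient mice changed 1 of 9 members, with 0 higher and 1 lower (Klf15), beside a background of 4.64% of all genes called, 3.29% higher and 1.35% lower. The background count of 926 genes fell to 277, 468 and 472 without GR-deficient AKI replicates 1 and 2 and healthy GR-deficient replicate 2, while Klf15 passed in all of these fits. In control mice AKI changed 8 of 9, 6 higher (Klf2, Klf3, Klf4, Klf5, Klf6 and Klf10) and 2 lower (Klf9 and Klf15), where 28.7% of all genes were called, 13.6% higher and 15.1% lower. The number of members called in control mice ranged from 6 to 8 over 12 alternatives, with Klf3 lost in 7 and Klf2 in 1 of them. The median absolute difference of the 9 genes was 0.22 in GR-deficient and 0.76 in control mice, beside 0.14 and 0.18 over all genes. The arrays with AKI did not overlap the healthy ones for 3 of 9 members in GR-deficient and 8 of 9 in control mice, and for 25.3% and 39.6% of all genes.

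**Figure D2:**
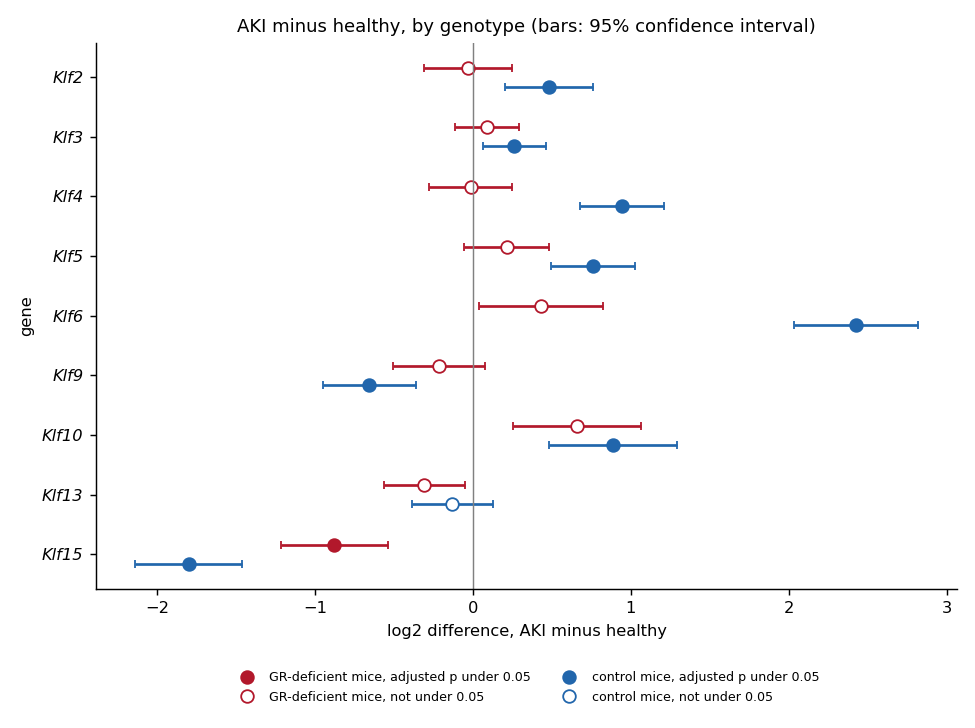
Log2 difference of AKI minus healthy (horizontal axis) for each gene (vertical axis), in GR-deficient mice (red, upper) and control mice (blue, lower), with 95% confidence intervals and filled points where the adjusted p was under 0.05. In control mice 8 of 9 genes are filled, from -1.80 for Klf15 to 2.43 for Klf6, and in GR-deficient mice only Klf15 is, at -0.88.

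GR-deficient and control mice with AKI differed in 4 of 9 members, with Klf15 higher and Klf4, Klf5 and Klf6 lower in GR-deficient mice. The background was 17.4% of all genes, 10% higher and 7.34% lower. Klf3 (-0.28 ± 0.09, adjusted p = 0.0554), Klf2 (-0.31 ± 0.13, adjusted p = 0.125) and Klf10 (-0.42 ± 0.19, adjusted p = 0.16) did not pass. Klf3 passed in 4 of 12 alternatives, after quantile normalization (adjusted p = 0.0241), without dim genes (adjusted p = 0.0173), with a variance trend (adjusted p = 0.0345) and without both arrays that stand apart (adjusted p = 0.0438). Without control AKI replicate 1, on which Klf10 was lowest of its group, the Klf10 difference was -0.66 and passed (adjusted p = 0.011). Klf10 also passed without both arrays that stand apart (adjusted p = 0.00638). The number of members called ranged from 4 to 6 over the alternatives. The difference was negative in 8 of 9 members, with a median of -0.31 beside -0.04 over all genes, and the arrays did not overlap for 6 of 9 members and for 32.8% of all genes. The 6 were Klf2, Klf3, Klf4, Klf5, Klf6 and Klf15. For Klf2 the nearest arrays were all but tied, at 8.41846 in GR-deficient and 8.4186 in control mice. The interaction was called for 3 of 9 members, Klf15 higher and Klf4 and Klf6 lower, beside 11.5% of all genes, 7.39% higher and 4.06% lower. The comparison of genotypes with AKI and the injury comparison in control mice share the control AKI arrays, so they are not independent views of the same genes.

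**Figure D3:**
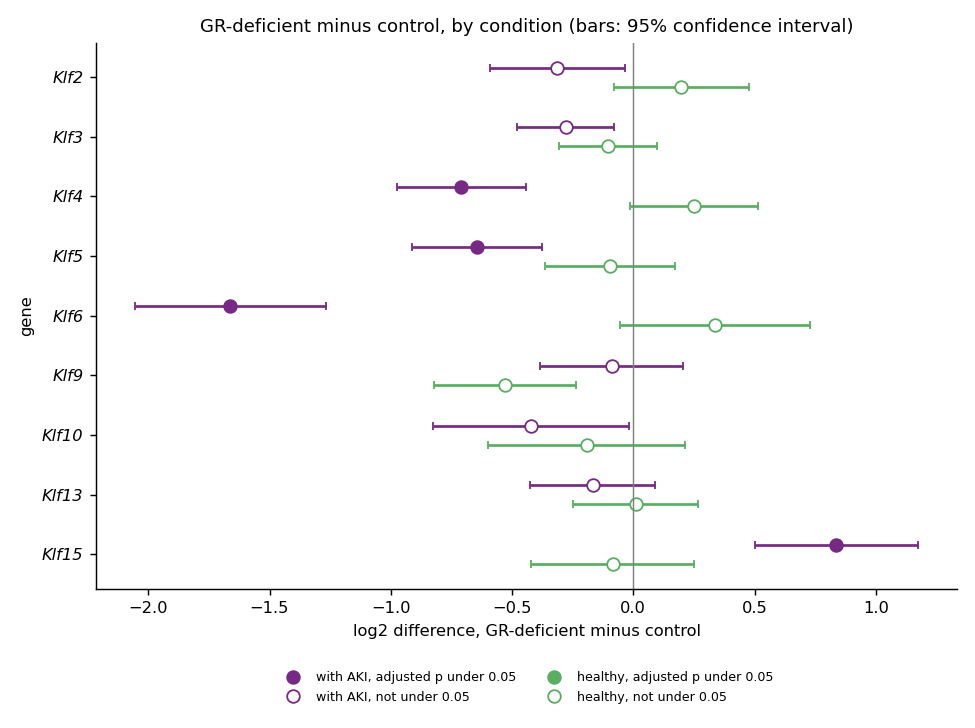
Log2 difference of GR-deficient minus control mice (horizontal axis) for each gene (vertical axis), with AKI (purple, upper) and in healthy mice (green, lower), with 95% confidence intervals and filled points where the adjusted p was under 0.05. With AKI Klf6 (-1.66), Klf4 (-0.71), Klf5 (-0.64) and Klf15 (0.84) are filled, and in healthy mice no gene is, the widest being Klf9 at -0.53.

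In the healthy cortex 0 of 9 members differed between GR-deficient and control mice by limma after adjustment, and 1 (Klf9) had an unadjusted p under 0.05. Few genes were called there at all, 0.145% of 19938, with 0.0351% higher and 0.110% lower in GR-deficient mice. The arrays of the genotypes did not overlap for 3 of 9 members, Klf9 and Klf3 lower and Klf6 higher in GR-deficient mice, and for 18.6% of all genes. Klf6 was 0.34 ± 0.18 higher there (adjusted p = 0.549), the sign opposite to that with AKI. Averaged over both conditions with equal weight, 2 of 9 members were lower in GR-deficient mice and 0 higher, Klf6 by 0.66 ± 0.13 (adjusted p = 0.00596) and Klf5 by 0.37 ± 0.09 (adjusted p = 0.0177), beside 8.46% of all genes, 4.54% higher and 3.92% lower. Klf5 missed the threshold without healthy control replicate 2, GR-deficient AKI replicate 2 or 3, or healthy GR-deficient replicate 2 (adjusted p from 0.0506 to 0.0543). Klf15 (0.38 ± 0.11, adjusted p = 0.0514) and Klf9 (-0.31 ± 0.10, adjusted p = 0.0664) lay just outside it and passed after quantile normalization, without dim genes and with a variance trend (adjusted p from 0.0274 to 0.0443), as did Klf3 without dim genes (adjusted p = 0.0321). Klf15 also passed without control AKI replicate 3 (0.45, adjusted p = 0.0167), GR-deficient AKI replicate 1 (0.44, adjusted p = 0.0335) or healthy GR-deficient replicate 3 (0.45, adjusted p = 0.0214), Klf9 without the last of these (-0.40, adjusted p = 0.00802), and Klf10 without control AKI replicate 1 (-0.42, adjusted p = 0.0237) or both arrays that stand apart (adjusted p = 0.0384).

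Other members of the family were read from a list. Of 17 listed other KLF and Sp genes, Sp factors being the nearest relatives of KLFs, 16 were measured. In GR-deficient mice AKI changed none of them (0 higher, 0 lower), beside 4.64% of all genes. In control mice 1 rose and 3 fell, beside 13.6% higher and 15.1% lower over all genes. Klf12, a repressor, fell by 1.31 ± 0.16 in control mice (adjusted p = 1.89e-05), Sp5 by 0.56 ± 0.11 (adjusted p = 0.000977) and Sp4 by 0.39 ± 0.14 (adjusted p = 0.0431), while Klf16 rose by 0.37 ± 0.11 (adjusted p = 0.0179). With AKI Klf12 was 0.53 ± 0.16 higher in GR-deficient than in control mice (adjusted p = 0.0356) and had an interaction of 0.89 ± 0.23 (adjusted p = 0.0204), the signs that Klf15 showed. Sp1 and Sp3, the general GC box factors, had differences between -0.04 and 0.14 after AKI in either genotype and were not called.

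Genes that other work links to these factors were read from lists. Of 15 immediate early genes, the class of rapid responders to which Klf4, Klf6 and Klf10 are often added, 3 rose and 0 fell with AKI in GR-deficient mice, and 12 rose and 1 fell in control mice (median differences 0.31 and 1.32). With AKI 12 of the 15 were lower and 0 higher in GR-deficient than in control mice, for example the stress factor Atf3 (-2.42 ± 0.31, adjusted p = 7.62e-05), the antiproliferative gene Btg2 (-1.25 ± 0.14, adjusted p = 2.64e-05) and the orphan receptor Nr4a1 (-1.01 ± 0.12, adjusted p = 4.73e-05). Of 19 measured glucocorticoid receptor targets other than KLFs, 4 rose and 1 fell with AKI in GR-deficient mice and 11 rose and 3 fell in control mice, and with AKI 13 were lower and 0 higher in GR-deficient mice. Map3k6 (-1.48 ± 0.13, adjusted p = 3.76e-06) and Pdk4 (-1.79 ± 0.25, adjusted p = 0.000153), a brake on glucose oxidation, were among them. In the healthy cortex 0 of the 19 differed, and Dusp1, a phosphatase of MAP kinases that is in both lists, came nearest (-0.85 ± 0.17, adjusted p = 0.0644). After AKI in control mice Klf9 and Klf15 were lower, while 11 of the 19 rose. The 3 of the 19 that fell were Dusp1 (-0.52 ± 0.17, adjusted p = 0.03), Tsc22d3 (-0.45 ± 0.16, adjusted p = 0.0401) and Gpx3 (-0.28 ± 0.10, adjusted p = 0.047).

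Amino acid breakdown and gluconeogenesis genes linked to KLF15 were split between members that were called and members that were not. Of 18 measured, 1 rose and 3 fell with AKI in GR-deficient mice, and 0 rose and 12 fell in control mice (median differences -0.31 and -1.17). The gene that rose in GR-deficient mice was Gpt2, an alanine aminotransferase (0.79 ± 0.18, adjusted p = 0.0225). In control mice 6 of the 18 were not called, among them Tat, a tyrosine aminotransferase known as a glucocorticoid target (0.02 ± 0.16, adjusted p = 0.961). With AKI 9 were higher and 0 lower in GR-deficient mice, and 9 were not called. Higher were, for example, Prodh2, an enzyme of hydroxyproline breakdown (1.64 ± 0.19, adjusted p = 4.21e-05), Fbp1, a gluconeogenic phosphatase (0.90 ± 0.12, adjusted p = 0.000136), and Bckdhb, a subunit of branched-chain keto acid dehydrogenase (0.78 ± 0.12, adjusted p = 0.000525). Prodh, the proline dehydrogenase, fell in GR-deficient mice (-0.77 ± 0.13, adjusted p = 0.00384) and in control mice (-1.34 ± 0.13, adjusted p = 1.8e-06), and with AKI differed by 0.13 ± 0.13 between them (adjusted p = 0.573). The proximal tubule makes many of these enzymes, and all 10 of its measured markers were higher in GR-deficient than in control mice with AKI, at mean log2 levels of 11.97 to 12.21 against 10.59 to 10.98. When healthy these levels were 12.1 to 12.6 in GR-deficient and 12.6 to 12.7 in control mice. In bulk cortex, fewer cells of a type and less RNA per cell cannot be told apart, and the part of the marker change in the Klf15 differences was not tested.

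**Figure D4:**
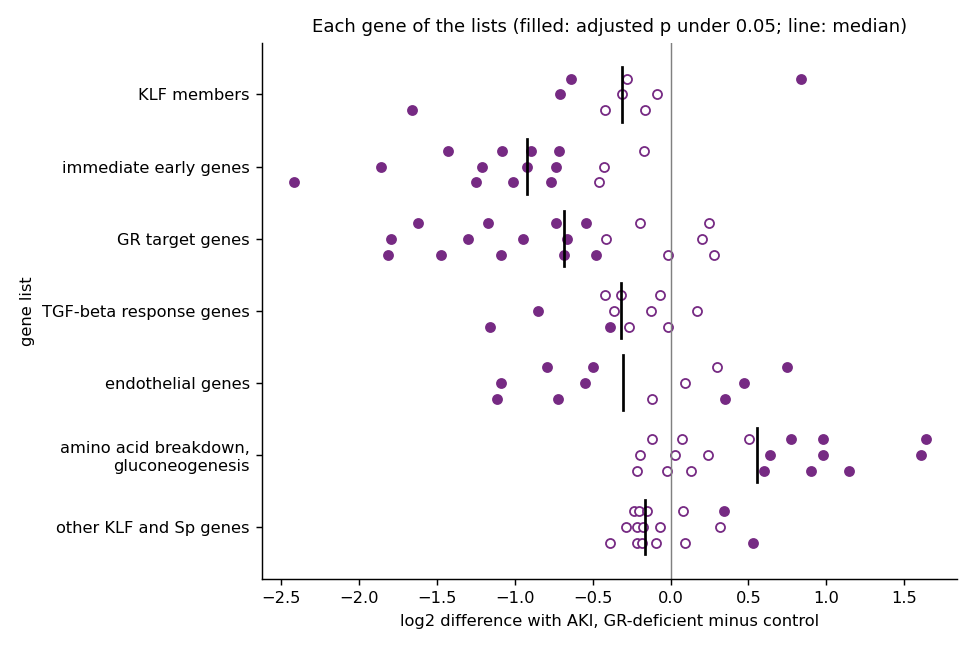
Log2 difference of GR-deficient minus control mice with AKI (horizontal axis) for each gene of 7 lists (vertical axis), with filled points where the adjusted p was under 0.05 and a line at each median. The median lies at -0.31 for the 9 KLF members, at -0.92 for the immediate early genes and at 0.55 for the amino acid breakdown and gluconeogenesis genes.

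Endothelial genes linked to KLF2 and KLF4 went in several directions. Of 12, 2 rose and 0 fell with AKI in GR-deficient mice, and 6 rose and 2 fell in control mice, and with AKI 3 were higher and 6 lower in GR-deficient mice. Thbd, the anticoagulant receptor thrombomodulin (-1.12 ± 0.17, adjusted p = 0.000309), and Nos3, the endothelial nitric oxide synthase (-0.79 ± 0.13, adjusted p = 0.000637), were lower in GR-deficient mice with AKI, as was S1pr1 (-1.09 ± 0.12, adjusted p = 1.89e-05). Thbs1, Cdh5 and Edn1 were lower too. Higher were Tek (0.75 ± 0.14, adjusted p = 0.0013), Vcam1 (0.47 ± 0.12, adjusted p = 0.016) and Kdr (0.35 ± 0.11, adjusted p = 0.035). Klf2 itself was not called in this comparison (-0.31 ± 0.13, adjusted p = 0.125). The 9 endothelial markers had mean log2 levels of 9.38 to 9.40 in GR-deficient and 9.20 to 9.45 in control mice with AKI, and of 9.19 to 9.42 in GR-deficient and 9.40 to 9.50 in control mice when healthy, so these ranges overlapped between the genotypes. With AKI 3 of the 9 markers were higher and 3 lower in GR-deficient mice. Of 7 neutrophil markers, 0 were called after AKI in GR-deficient mice, and 6 rose in control mice. With AKI 5 were lower in GR-deficient mice, while Mmp9 (-0.30 ± 0.14, adjusted p = 0.193) and Ly6g (-0.03 ± 0.15, adjusted p = 0.925) were not called. They had mean log2 levels of 5.41 to 5.68 in GR-deficient and 6.14 to 6.60 in control mice with AKI and of 5.21 to 5.41 in GR-deficient and 5.08 to 5.40 in control mice when healthy. Of 8 monocyte and macrophage markers, 1 was higher and 2 lower in GR-deficient mice with AKI, at a median difference of -0.00246. Cd14 (-2.11 ± 0.23, adjusted p = 2.86e-05) and Cd68 (-1.70 ± 0.17, adjusted p = 1.03e-05) were lower, and Csf1r was higher (0.59 ± 0.12, adjusted p = 0.00308). The other 5 were not called, and the mean levels of the 8 were 7.22 to 7.62 in GR-deficient and 7.69 to 8.03 in control mice with AKI. Markers of the loop, distal tubule and collecting duct, where Klf5 is known, stood at 10.13 to 10.50 in GR-deficient and 9.45 to 9.55 in control mice with AKI, with 6 of 9 higher and 1 lower in GR-deficient mice. The part of neutrophil, monocyte and macrophage markers in the Klf6 differences was not tested.

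Genes with the most similar profile were found by the root mean square difference of values centred on each gene's own mean over the 12 arrays. Nearest to Klf6 were Adamts1 (0.0939) and Adamts4 (0.177), both secreted proteases, and Socs3 (0.187), the feedback inhibitor of STAT3 signalling, where the Klf6 profile itself had a root mean square of 0.958. Klf15, at 0.754, was followed by Haao (0.149), an enzyme of tryptophan breakdown, Lzts3 (0.158) and Igfbp5 (0.165), an IGF binding protein. For Klf4, at 0.373, these were Ehbp1l1 (0.0893), Cdc34 (0.116), a ubiquitin-conjugating enzyme, and Rusc2 (0.12). For Klf5, at 0.357, they were Dhx32 (0.0976), Pes1 (0.1) and Rbm19 (0.101), the last 2 being ribosome assembly genes. Brix1 (0.138), also of ribosome assembly, Pa2g4 (0.148) and Mpp1 (0.158) came nearest to Klf10 (0.477), and Osbpl9 (0.109), Tmem189 (0.115) and Bsdc1 (0.117) to Klf9 (0.322). The profiles of Klf2 (0.217), Klf13 (0.168) and Klf3 (0.148) varied little, and their nearest genes were Ccnf (0.0714), C77080 (0.0809) and Slc35e4 (0.0815) for Klf2, Ppfia1 (0.0653), Tgfbr3 (0.0847) and Zfp345 (0.0876) for Klf13, and Csnk1d (0.0415), Rbm28 (0.0459) and Tmed2 (0.0614) for Klf3. Among the members the closest pair was Klf4 and Klf5 (0.166).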

How the data were processed

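Log2 expression values were deposited by the authors. Their processing notes to GEO name robust multichip averaging (RMA), affy and oligo, with no role or order. The table holds values for 35556 probe sets on 12 Affymetrix arrays. Versions and genome build: not given in the sources used here. The log base is not stated in the table, and array maxima of 14.73 to 14.9 fit a log2 scale. Probe sets with exactly 1 gene symbol (21789) were kept, the one with the highest mean per gene, leaving 19938 genes with no filter on dim genes. Each of the 9 members had 1 such probe set. The number of arrays limits the precision.

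Differences were tested with limma 3.58.1 in R 4.3.3 (lmFit, eBayes, 4 group means, 8 residual and 6.26 prior degrees of freedom), two-sided, with Benjamini-Hochberg adjustment over all genes per contrast and a threshold of 0.05. The code was tested on simulated data. All 9 members were named in every comparison, with the up to 4 members of smallest p of each list described and the 3 genes nearest in profile, skipping predicted genes and clone names. From each list only some of these are printed. Prodh in the comparison of genotypes, Tat, the marker genes, Sp1, Sp3 and Havcr1 were chosen after their values were seen. So were Dusp1, Tsc22d3 and Gpx3 after AKI in control mice, and the endothelial list genes beyond the 4 of smallest p. The members and lists were chosen with earlier results of these data known. Alternatives were quantile normalization, a dim gene filter, averaged probe sets, a variance trend, a replicate block and arrays left out.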

Additional observations from a re-analysis of the deposited data

Results flagged for a closer look

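The response to AKI differed between genotypes, by the interaction test over all genes, for 3 members. The response in GR-deficient minus that in control mice was -2.00 for Klf6, with differences of 0.43 in GR-deficient and 2.43 in control mice (adjusted p = 0.000273). It was -0.96 for Klf4, with differences of -0.01 and 0.95 (adjusted p = 0.00255), and 0.92 for Klf15, with differences of -0.88 and -1.80 (adjusted p = 0.0144). Each of the 3 passed under all 18 alternatives, with adjusted p from 0.000105 to 0.00123 for Klf6, from 0.00112 to 0.0104 for Klf4 and from 0.00422 to 0.0447 for Klf15.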

How the results depend on the processing

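Of 756 values of single members under the alternatives, 703 kept their direction and their side of the threshold, 12 lost and 30 gained a call and 11 changed sign, none of the last with a call. The calls of Klf4, Klf5, Klf6 and Klf15 between genotypes with AKI and of Klf4, Klf5, Klf6, Klf9, Klf10 and Klf15 after AKI in control mice held in all 12 alternatives each. The number of members called for AKI in GR-deficient mice, 1 as reported, was 2 after quantile normalization, without dim genes, with a variance trend and without both arrays that stand apart, Klf10 being the gene gained (adjusted p from 0.0351 to 0.0463), and ranged from 1 to 2 when single arrays were left out. Members called for the genotype average, 2 as reported, were 4 after quantile normalization, 5 without dim genes and 4 with a variance trend, and 1 to 4 without single arrays. For the interaction 5 passed without dim genes in place of 3. Members called in the healthy cortex were 0 to 1 without single arrays. Over all genes, the dim gene filter gave 1419 calls for AKI in GR-deficient mice in place of 926 (277 to 920 without single arrays), and the genotype average gave 1079 to 1943 without single arrays in place of 1686. The healthy genotype comparison, with 29 genes, gave 53 after quantile normalization, 74 without dim genes, 73 with a variance trend and 10 to 115 without single arrays. The causes of these changes were not tested. Without both arrays that stand apart the signs turned for Klf2 (0.095) and Klf4 (0.088) after AKI in GR-deficient mice and for Klf13 (-0.020) between healthy genotypes. Without single arrays these values ranged from -0.11 to 0.095 for Klf2, from -0.086 to 0.096 for Klf4, from -0.081 to 0.10 for Klf13 and from -0.16 to 0.058 for Klf15 between healthy genotypes. Deviations of same-numbered arrays from their group means correlated at -0.41 to 0.252. Differently numbered arrays were not compared and the labels name no pairing, so whether the numbers pair the samples cannot be decided. With a replicate block the genes called numbered 671, 5368, 3104, 25, 2013 and 1418 (AKI in GR-deficient mice, AKI in control mice, genotype with AKI, genotype when healthy, interaction, average), and of the members' calls only Klf3 in control mice was lost (adjusted p = 0.0818).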

Other observations

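Among 11 measured TGF-beta response genes linked to KLF10, 1 rose and 0 fell with AKI in GR-deficient mice (Tgfbi, a matrix protein, 0.89 ± 0.17, adjusted p = 0.0082), and 6 rose and 0 fell in control mice. With AKI 3 were lower and 0 higher in GR-deficient than in control mice, namely the repressor Tgif1 (-1.16 ± 0.18, adjusted p = 0.000426), the matricellular gene Ccn2 (-0.85 ± 0.15, adjusted p = 0.000816) and the ligand Tgfb1 (-0.39 ± 0.12, adjusted p = 0.0338).

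The GR-deficient AKI array with the lowest Klf6, replicate 3 (8.56), also had the lowest level of the tubular injury marker Havcr1 in its group, 9.53 against 10.75 and 11.11 on the other arrays. The healthy GR-deficient array with the lowest Klf9, replicate 1 (10.39), had the highest Havcr1 of its group, 8.11 against 6.91 and 5.87, and the one with the lowest Havcr1, replicate 3, had the highest Klf9 (11.06). Each pairing ran the other way in the other GR-deficient group. When healthy, replicate 3, with the lowest Havcr1, had the highest Klf6 (8.90). With AKI, replicate 3, with the lowest Havcr1, had the lowest Klf9 (10.43), and replicate 2, with the highest Havcr1, had the highest Klf9 (10.56). With 3 arrays in a group these pairings were not tested. In control mice Havcr1 stood at 12.73, 12.92 and 12.78 with AKI, above every GR-deficient AKI array, and at 7.28, 6.31 and 6.49 when healthy. The injury marker was thus itself lower in GR-deficient than in control mice with AKI. The part of this Havcr1 difference in the KLF differences between genotypes was not tested.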
